A study of Homo sapiens with 6 samples.

Results

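The miR-30 family was followed in HCT-116 cells, an established human colorectal carcinoma line, through its 5 members miR-30a, miR-30b, miR-30c, miR-30d and miR-30e, of 844 human miRNA names on the array. Members were taken by probe name, on either strand, which gave 11 human probes of 1741: 5 named without a star, read here as the main strands, and 6 with a star, the name then used for the opposite strand. No human precursor-named probe and no mismatch probe carried a miR-30 name. All cells were of the same line and all had been transiently transfected, which gave 3 groups. Mock cells received the empty vector, and the others received Uc283+a, a long noncoding RNA from an ultraconserved stretch of the genome, as variant 1 (8 T in a row) or variant 2 (9 T in a row). Each group had 2 arrays, and how much Uc283+a the cells held was not analysed here. Whether the 2 arrays of a group are separate cultures is not stated, so p-values reflect only how far these samples spread, which may be technical. In such bulk RNA, fewer cells holding a miRNA and less of it per cell cannot be told apart.

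A miRNA is cut from a hairpin in a longer primary transcript, first by Drosha with DGCR8 in the nucleus and then by Dicer, and 1 strand is loaded into an Argonaute protein, which it guides to messenger RNAs mainly through its seed, bases 2 to 8. The miR-30 main strands share their seed and therefore many targets. The family is known for restraining the change from epithelial to mesenchymal character, in which miR-30a represses the transcription factor SNAI1, and miR-30a also represses BECN1, a starter of autophagy. The study looked for miRNA targets of Uc283+a, with the processing of primary transcripts as its subject, so the members were read first as mature strands and then by the hairpin each comes from.

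The RefSeq table (GRCh38.p14) held 4 family hairpins with both of their strands, for MIR30A, MIR30C1, MIR30C2 and MIR30E. The main strands of 3 members are shown because their shared 5′ part and their differing 3′ part decide which of them an array probe can tell apart. They are written 5′ to 3′, with the seed in capitals.
hsa-miR-30a-5p: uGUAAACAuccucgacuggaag
hsa-miR-30e-5p: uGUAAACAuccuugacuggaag
hsa-miR-30c-5p: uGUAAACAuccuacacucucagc

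The first 12 bases were identical in all 3. Counted from 1 at the 5′ end of miR-30a, miR-30e differed by C13U alone, 1 of 22 positions, whereas miR-30c differed at 5 positions (C13A, G14C, G18C, G19U and A20C). A probe for miR-30a therefore faces a miR-30e strand with a single changed base. The mature miR-30c is made from both MIR30C1 and MIR30C2, so its probe cannot tell the hairpins apart, while their opposite strands differ at 3 positions (G9A, U12C and C22U, from the MIR30C1 strand to the MIR30C2 strand) and have a probe each. The opposite strands are shown next because they fall into separate seed groups, again with the seed in capitals.
hsa-miR-30a-3p: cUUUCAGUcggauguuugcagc
hsa-miR-30e-3p: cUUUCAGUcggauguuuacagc
hsa-miR-30c-1-3p: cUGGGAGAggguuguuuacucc
hsa-miR-30c-2-3p: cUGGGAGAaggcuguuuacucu

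The opposite strands of miR-30a and miR-30e differed by G18A alone. The hairpins are shown because the label was primed at random on total RNA. A probe named for a mature strand could in principle also read precursor RNA holding the same letters. Capitals mark the 2 mature strands of each hairpin, and the length of RNA between them was 16 to 20 bases.
MIR30A, chr6:71403551-71403621, minus strand: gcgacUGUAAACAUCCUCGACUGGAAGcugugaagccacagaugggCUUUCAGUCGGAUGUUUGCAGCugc
MIR30C2, chr6:71376960-71377031, minus strand: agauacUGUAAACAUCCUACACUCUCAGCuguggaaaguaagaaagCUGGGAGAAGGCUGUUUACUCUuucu
MIR30E, chr1:40754355-40754446, plus strand: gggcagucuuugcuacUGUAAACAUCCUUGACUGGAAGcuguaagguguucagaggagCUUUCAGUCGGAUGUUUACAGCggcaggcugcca
MIR30C1, chr1:40757284-40757372, plus strand: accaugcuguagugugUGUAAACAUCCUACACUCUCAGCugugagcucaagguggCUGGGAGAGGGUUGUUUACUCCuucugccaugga

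The family thus lies in pairs. MIR30E and MIR30C1 are 2.84 kb apart within the span of NFYC, which encodes a subunit of the CCAAT-binding factor NF-Y, and MIR30A and MIR30C2 are 26.5 kb apart with no other gene of the RefSeq table over either hairpin. Whether a hairpin is exonic or intronic is not given in that table.

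MIR30B and MIR30D form the last pair, 4.27 kb apart on chromosome 8 within the span of ZFAT in the same table, and are named here without sequence.

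Signals are on the log2 scale as the authors normalized them, where 1 unit is a 2-fold change. Probes have no common scale, so a probe's level was compared between arrays only, and where probes are set side by side it is by their differences between groups. A probe counts as above the random-sequence level on an array when it exceeds a limit set by the 38 random-sequence probes there, namely their 95th percentile, which lay between 6.75 and 7.27. On all 6 arrays 5 of the 11 miR-30 probes did so (hsa-miR-30a, hsa-miR-30b, hsa-miR-30c, hsa-miR-30d and hsa-miR-30c-2*), against 389 of the 1773 tested probes. Mock replicate 1 and variant 2 replicate 2 stood apart: over those 389 probes the SD of the log2 difference was 0.667 to 0.837 for the 9 pairs of arrays that held either, and 0.463 to 0.576 for the other 6 pairs. Of the labelled cell type's markers, 3 of 10 epithelial probes (hsa-miR-200b, hsa-miR-200c and hsa-miR-429) and 0 of 7 intestinal probes for miR-192, miR-194 and miR-215 were above the level on all arrays. So were 3 of 5 neural probes (hsa-miR-124, hsa-miR-124* and hsa-miR-128), 1 of 2 liver probes (hsa-miR-122), 1 of 10 haematopoietic probes (hsa-miR-150), 1 of 13 muscle probes (hsa-miR-206) and 2 of 10 fibroblast probes (hsa-miR-145* and hsa-miR-214). The markers thus did not single out the labelled cell type, and the part of these signals in the miR-30 values was not tested.

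**Figure D1:**
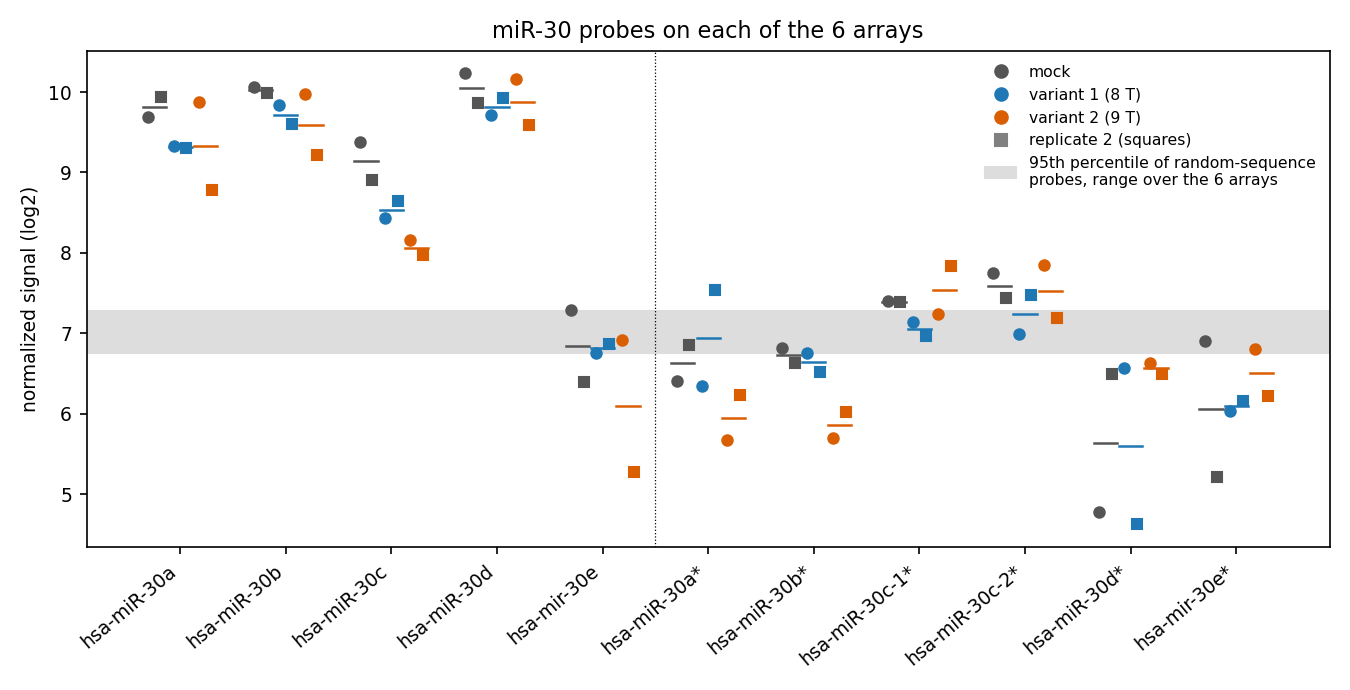
Normalized log2 signal of each of the 11 human miR-30 probes on the 6 arrays, with circles for replicate 1, squares for replicate 2 and a short line for each group mean (n = 2). The main strands of miR-30a, b, c and d lie above the grey band, which spans the random-sequence level of the 6 arrays, while hsa-mir-30e and the star-named probes reach into or under it on at least 1 array.

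The main strand of miR-30c lowers the lipid transfer protein MTTP in human and mouse liver cells. Its human-named probe lay below mock on every variant array, whereas its mouse-named probe, given further below, overlapped mock. The human-named probe, hsa-miR-30c, gave 9.37 and 8.91 in mock, 8.43 and 8.64 with variant 1, and 8.16 and 7.97 with variant 2. All 4 variant arrays lay below both mock arrays, and both variant 2 arrays lay below both variant 1 arrays. The mean was 9.14 ± 0.332 (SD, n = 2) in mock against 8.30 ± 0.296 (n = 4) with either variant. They differed by -0.84 (SE 0.332, 95% interval -1.59 to -0.08). By limma the unadjusted p was 0.0333, the 53rd smallest of 1773 tested probes, and the adjusted p was 0.975, so the difference did not pass. Set against mock alone, variant 1 differed by -0.60 (SE 0.384) and variant 2 by -1.07 (SE 0.384, unadjusted p 0.0213), with limma adjusted p of 0.960 and 0.938. Without mock replicate 1 the variant 1 difference was -0.37. Centred on the small nucleolar RNA probes of each array, the difference for both variants was -0.29.

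The main strand of miR-30a, the repressor of SNAI1 and BECN1, gave 9.70 and 9.94 in mock, 9.33 and 9.31 with variant 1, and 9.87 and 8.78 with variant 2. Both variant 1 arrays lay below mock, but of the variant 2 arrays replicate 1 lay among the mock values and replicate 2 was the lowest of all 6. The difference was -0.49 (SE 0.389, 95% interval -1.38 to 0.39) for both variants and did not pass. The differences for variant 1 and variant 2 were -0.50 and -0.49, and without variant 2 replicate 2 the latter was 0.06. The difference for both variants was then -0.22, and -0.77 without variant 2 replicate 1.

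The pair miR-30b and miR-30d, which in melanoma are known to promote invasion by repressing the glycosyltransferase GALNT7, both lay below mock in the mean. The probe hsa-miR-30b gave 10.06 and 9.99 in mock, 9.84 and 9.60 with variant 1, and 9.98 and 9.21 with variant 2. All 4 variant arrays were below mock, the first variant 2 array by only 0.01, and the difference was -0.37 (SE 0.354, 95% interval -1.17 to 0.44). The probe hsa-miR-30d gave 10.23 and 9.86 in mock, 9.72 and 9.92 with variant 1, and 10.17 and 9.59 with variant 2. Its groups overlapped, with a difference of -0.20 (SE 0.346, 95% interval -0.98 to 0.59), and neither member passed. With 1 array left out at a time the difference ran from -0.56 to -0.18 for hsa-miR-30b and from -0.38 to -0.01 for hsa-miR-30d, the last value without mock replicate 1.

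The main strand of miR-30e, which shares all but 1 base with miR-30a, was not well above the random-sequence level. Its probe hsa-mir-30e gave 7.29 and 6.40 in mock, 6.76 and 6.87 with variant 1, and 6.92 and 5.27 with variant 2, above that level on 2 of 6 arrays. The groups overlapped, and no fold is given for signals of this size.

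Among the human-named probes of opposite strands, those of miR-30c were most often above the random-sequence level. The margin over it was small, at 0.23 to 0.89 for hsa-miR-30c-2*. The strand from MIR30C2, hsa-miR-30c-2*, was above the random-sequence level on all 6 arrays, with 7.75 and 7.43 in mock, 6.99 and 7.48 with variant 1, and 7.85 and 7.19 with variant 2. The strand from MIR30C1, hsa-miR-30c-1*, was above it on 5 of 6 arrays, with 7.40 and 7.38 in mock, 7.14 and 6.96 with variant 1, and 7.23 and 7.84 with variant 2. Each group of hsa-miR-30c-2* overlapped the others, and its difference for both variants was -0.21 (SE 0.362). For hsa-miR-30c-1* the variant 1 arrays lay below mock and the variant 2 arrays lay on both sides of it.

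Side by side, with variant 2 the difference from mock was -1.07 for hsa-miR-30c and -0.07 (SE 0.418) for hsa-miR-30c-2*. With variant 1 it was -0.60 and -0.36. With 1 array left out at a time, the variant 2 difference ran from -1.31 to -0.84 for hsa-miR-30c and from -0.40 to 0.26 for hsa-miR-30c-2*. Whether the strands differ in their change was not tested. The other 4 star-named probes, of miR-30a, miR-30b, miR-30d and miR-30e, were above the random-sequence level on 0 to 2 arrays. Their signals ran from 5.68 to 7.53 for hsa-miR-30a*, from 5.70 to 6.82 for hsa-miR-30b*, from 4.62 to 6.63 for hsa-miR-30d* and from 5.21 to 6.91 for hsa-mir-30e*. The 2 mock arrays alone were 4.78 and 6.49 for hsa-miR-30d*, so the spread within a group was wider than the distance between any group means.

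**Figure D2:**
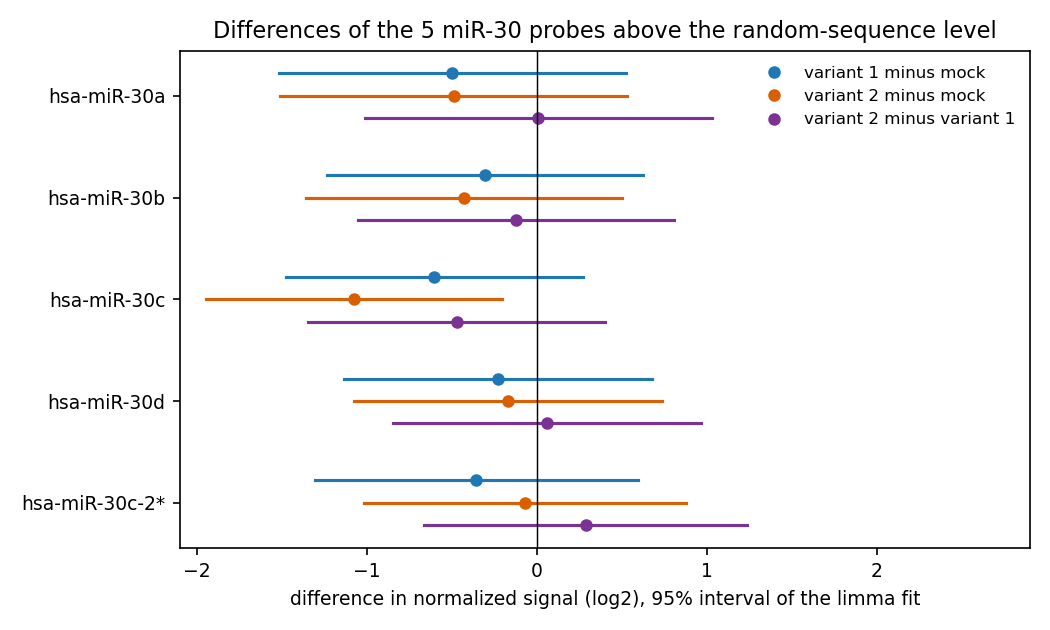
Difference in log2 signal (x axis) of the 5 miR-30 probes above the random-sequence level on all arrays, with 95% intervals of the limma fit, for variant 1 minus mock, variant 2 minus mock and variant 2 minus variant 1. Of the 15 intervals, the one of hsa-miR-30c for variant 2 against mock, from -1.95 to -0.20, leaves out 0.

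With both variants set against mock, limma called 0 of the 11 miR-30 probes, where it called 0.0% of the 1773 tested probes. The unadjusted p was under 0.05 for 39 probes above mock and 43 below. Of the miR-30 probes 1 of 11 was lower at that level, hsa-miR-30c, where 2.43% of all tested probes were. The arrays did not overlap, with the variants lower, for 2 of 11 probes (hsa-miR-30b and hsa-miR-30c), where 6.71% of all tested probes did so. In sign alone 9 of 11 probes were below mock, where 50.6% of all were, with a median of -0.21 against -0.01. The 5 probes above the random-sequence level were all below mock, with a median of -0.37, against 191 of all 389 such probes and a median of 0.00. The median of the 5 was -0.18 without variant 2 replicate 2 and -0.56 without variant 2 replicate 1.

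The control probes moved with these values. The 4 probes for the small nucleolar RNAs U44 and U48, which guide methylation of ribosomal RNA and were not among the tested probes, had a mean difference of -0.55, with single differences of -0.31 to -0.74. Relative to the mock mean, their mean was at -0.32 and -0.69 on the variant 1 arrays and at -0.33 and -0.84 on the variant 2 arrays. The mean of the 4 miR-30 main strands above the random-sequence level was at -0.43 and -0.39, and at -0.21 and -0.87. Both were lowest on variant 2 replicate 2. With each array centred on these control probes, the differences of hsa-miR-30a, hsa-miR-30b and hsa-miR-30d turned to 0.05, 0.18 and 0.35. The median of all tested probes moved from -0.01 to 0.54. Such centring shifts every probe alike, so the place of these 3 probes under that median could not change. The part of the control probes' shift in the miR-30 values was not tested.

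**Figure D3:**
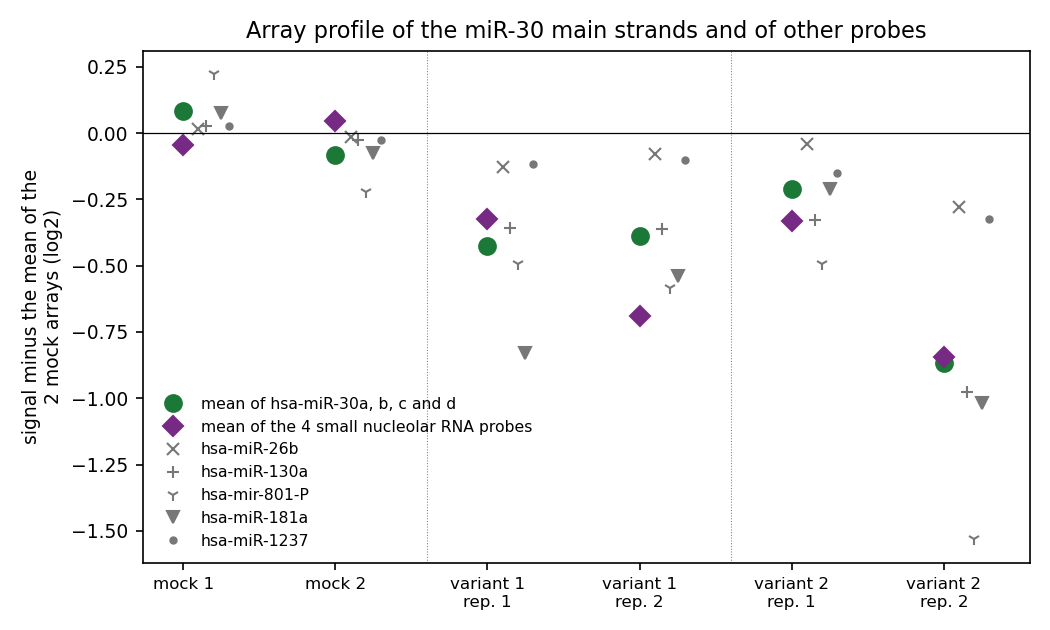
Log2 signal minus the mean of the 2 mock arrays (y axis) on each of the 6 arrays, for the mean of hsa-miR-30a, b, c and d, the mean of the 4 small nucleolar RNA probes, and the 5 probes whose array profile was most like that of the miR-30 mean. Both means lie below 0 on all 4 variant arrays and lowest on variant 2 replicate 2.

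With variant 1 set against mock, limma called 0 of 11 miR-30 probes and 0.0% of all tested probes, while the unadjusted p was under 0.05 for 34 probes above mock and 39 below. None of the miR-30 probes was among the 2.20% of tested probes that were lower at that unadjusted level. The arrays did not overlap, with variant 1 lower, for 4 of 11 (hsa-miR-30a, hsa-miR-30b, hsa-miR-30c and hsa-miR-30c-1*), against 17.3% of all. The median over the 11 probes was -0.23.

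With variant 2, limma again called 0 of 11 and 0.0% of all, while the unadjusted p was under 0.05 for 40 probes above mock and 45 below. Lower at that unadjusted level were 2 of 11 probes, hsa-miR-30c and hsa-miR-30b*, where 2.54% of all tested probes were. The second of these was above the random-sequence level on 1 array only. The arrays did not overlap, with variant 2 lower, for 4 of 11 (hsa-miR-30b, hsa-miR-30c, hsa-miR-30a* and hsa-miR-30b*), against 17.0% of all, and with variant 2 higher for 1 of 11 (hsa-miR-30d*), against 16.4% of all. The median over the 11 probes was -0.43, and it was 0.06 without variant 2 replicate 2. In the same fit without that array hsa-miR-30c differed from mock by -0.98.

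Variant 2 was last set against variant 1, from which it differs in the length of the T run. Limma called 0 of 11 miR-30 probes and 0.0% of all, while the unadjusted p was under 0.05 for 43 probes higher with variant 2 and 45 lower. No miR-30 probe was among the 2.54% of tested probes lower at that unadjusted level. The arrays did not overlap, with variant 2 lower, for 3 of 11 (hsa-miR-30c, hsa-miR-30a* and hsa-miR-30b*), against 17.9% of all, and with variant 2 higher for 2 of 11 (hsa-miR-30c-1* and hsa-mir-30e*), against 17.6% of all. The main strand of miR-30c differed by -0.47 (SE 0.384, 95% interval -1.34 to 0.40), miR-30a by 0.01 (interval -1.01 to 1.03), miR-30b by -0.12 (interval -1.05 to 0.81) and miR-30d by 0.06 (interval -0.85 to 0.97). All 4 intervals hold 0 and reach at least 0.40 on the higher and -0.85 on the lower side, so equal levels were not shown.

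The array also carries 11 mouse-named miR-30 probes, which were read on the same human RNA. The main strands of the family are conserved between mouse and human, so these probes give a further reading of the same miRNAs, although the probes' own letters were not used here. Like their human-named partners, the mouse-named probes of miR-30a, miR-30b, miR-30c and miR-30d were above the random-sequence level on all 6 arrays, and that of miR-30e was above it on 2.

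For miR-30a the namesakes moved alike. The probe mmu-miR-30a gave 9.42 and 9.19 in mock, 8.78 and 8.77 with variant 1, and 9.39 and 7.91 with variant 2. Its difference for both variants was -0.59 (SE 0.441), against -0.49 for the human-named probe. On both probes variant 2 replicate 1 lay near mock and variant 2 replicate 2 was lowest. For miR-30b the mouse-named probe gave 9.70 and 9.76 in mock, 9.76 and 9.71 with variant 1, and 9.75 and 9.05 with variant 2, so that variant 2 replicate 2 alone lay below both mock arrays.

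For miR-30c the namesakes gave different values. The probe mmu-miR-30c gave 9.30 and 9.84 in mock, 9.47 and 9.03 with variant 1, and 9.70 and 8.67 with variant 2. Its groups overlapped where those of hsa-miR-30c did not, and its difference was -0.35 (SE 0.406) against -0.84. The largest gap was on variant 2 replicate 1, at 0.13 above the mock mean for the mouse-named probe and -0.98 for the human-named one. The change of the human-named probe relative to the mouse-named one was -0.49. The pooled SD between single arrays of a group was 0.601. A two-sided exact permutation test gave a p of 0.400 (0.933 adjusted over 5 such pairs). That design, 4 arrays against 2, cannot give a p under 0.133, so whether the namesakes differ was not decided. Over the 6 arrays, which the paired probes share, the Pearson correlation was 0.95 for the miR-30a pair, 0.86 for miR-30b, 0.43 for miR-30d and 0.31 for miR-30c, and without variant 2 replicate 2 it was 0.85, 0.10, 0.29 and -0.23. These are descriptions of few arrays.

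The probe mmu-miR-30d gave 10.08 and 9.52 in mock, 9.998 and 9.33 with variant 1, and 9.79 and 9.49 with variant 2, a difference of -0.15 (SE 0.366). Its groups overlapped, as they did for hsa-miR-30d. Among opposite strands, mmu-miR-30c-1* was above the random-sequence level on 5 of 6 arrays, with 7.49 and 7.18 in mock, 6.56 and 7.14 with variant 1, and 7.87 and 8.57 with variant 2. Both variant 2 arrays lay above both variant 1 arrays, as on hsa-miR-30c-1*, with a difference of 1.37 (SE 0.427, limma adjusted p 0.940) against 0.48 (SE 0.391, limma adjusted p 0.938). Neither passed. The probes named for the opposite strand of miR-30b stood on opposite sides of mock with variant 2. Whether both read the same strand was not tested, and hsa-miR-30b* was above the random-sequence level on 1 array only. The probe mmu-miR-30b*, above the random-sequence level on 4 arrays, gave 6.21 and 7.21 in mock, 6.72 and 7.07 with variant 1, and 7.37 and 7.65 with variant 2, while hsa-miR-30b* gave 6.82 and 6.63, 6.76 and 6.52, and 5.70 and 6.03. Both variant 2 arrays lay above mock on the first and below it on the second, and the Pearson correlation over the 6 arrays was -0.77. The other mouse-named probes, mmu-miR-30a*, mmu-miR-30c-2*, mmu-mir-30d-P and mmu-miR-30e*, were above the random-sequence level on 0 or 1 arrays.

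**Figure D4:**
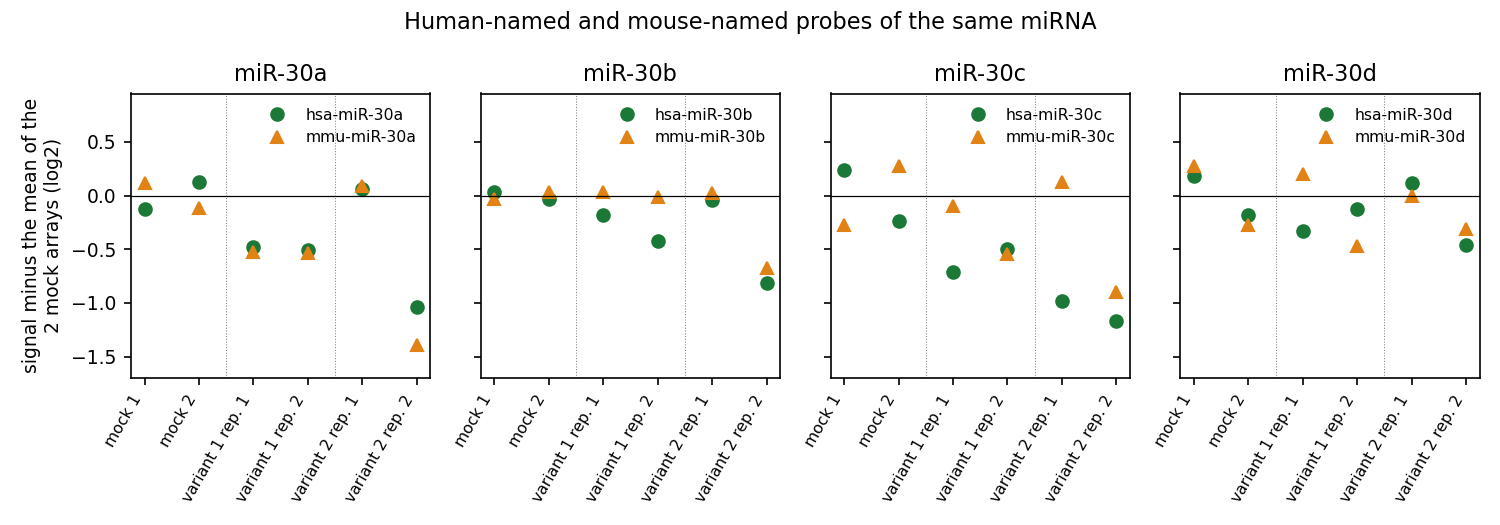
Log2 signal minus the mean of the 2 mock arrays (y axis) for the human-named (circles) and mouse-named (triangles) main-strand probes of miR-30a, b, c and d on each of the 6 arrays. The miR-30a pair moves together, while the miR-30c pair parts most on variant 2 replicate 1, at -0.98 and 0.13.

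The main strands also resembled each other across the arrays to different degrees. Over the 6 arrays the Pearson correlation was 0.93 between hsa-miR-30a and hsa-miR-30b, which come from different loci, and 0.53 between hsa-miR-30a and hsa-miR-30c. These were the highest and the lowest value among the pairs of hsa-miR-30a, b, c and d. Between hsa-miR-30b and hsa-miR-30d, which lie close together on chromosome 8, it was 0.75. Without variant 2 replicate 2 the 3 values were 0.79, 0.13 and 0.50. Outside the family, 382 human probes above the random-sequence level were ranked by their correlation with the mean of hsa-miR-30a, b, c and d over the 6 arrays, where the median was 0.00. The closest were hsa-miR-26b (0.98), hsa-miR-130a (0.97), hsa-mir-801-P (0.97), hsa-miR-181a (0.95) and hsa-miR-1237 (0.94), and without variant 2 replicate 2 they stood at 0.80 to 0.96. Their differences for both variants ran from -0.13 for hsa-miR-26b to -0.78 for hsa-mir-801-P. They were picked for likeness to a mean that lay below mock on every variant array, so these signs are no separate result.

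Other miRNAs known to restrain the epithelial to mesenchymal change gave no call either. Of 21 probes for the miR-200 family, miR-205, miR-34a, miR-101, miR-203 and miR-145, 0 passed, 14 were below mock and 7 above for both variants, and 6 were above the random-sequence level on all arrays. Their median was -0.07, beside -0.21 for the miR-30 probes and -0.01 for all tested probes. The median was -0.28 over 22 let-7 probes, 16 of them below mock, and -0.46 over 7 miR-29 probes, all 7 below mock. Of all tested probes 50.6% were below mock. The differences between these lists were not tested.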

How the data were processed

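Biotin-labelled cDNA from 4 µg of total RNA per sample was read on 6 one-colour arrays, per the labels' protocols. The deposited table holds 2997 probes as log2 signals already normalized by the authors, with array medians of 6.56 to 6.60; the log base is read from the ceiling just under 16. The submitters' processing notes name limma; how background was corrected and arrays normalized is not given in the sources used here. Tests ran on 1773 probes (1741 human miRNA and 32 ultraconserved-region probes). Limma 3.58.1 (R 4.3.3) fitted 1 mean per group over all 6 arrays, with 3 residual and 5.71 prior degrees of freedom. P-values are two-sided and Benjamini-Hochberg adjusted over all tested probes, with a threshold of 0.05. Mouse-named and control probes were fitted with all 2997 probes. Of the steps, the limma fit alone was tested on simulated data, in which no array stood apart.

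All human, mouse-named and mismatch miR-30 probes were to be named, and, outside the family, the 5 human probes most correlated with the mean main strand. The members and lists were chosen with earlier results of these data known. Differences are printed for probes above the random-sequence level on all arrays and, among the rest, for the miR-30c-1 star strand. That exception was not planned and was made after its values were seen. The number of arrays limits the precision. Alternatives covered scaling, filtering, priors, array weights and leaving out arrays.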

Additional observations from a re-analysis of the deposited data

How the results depend on the processing

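No alternative gave a miR-30 probe an adjusted p under 0.05 in limma: over 300 fitted values of the 5 probes above the random-sequence level, under 15 alternatives, the smallest was 0.369. The probe hsa-miR-30c lay below mock in every alternative run, from -1.07 to -0.29 for both variants. Of the 300 values 29 changed sign, 12 of them under centring on the small nucleolar RNA probes, which shifts every probe alike. Filtering, other priors, array weights and adjustment over all probes left every difference as it was. So did leaving out an array that a comparison does not use. These unchanged values are among the 300, so the share that changed sign understates the dependence on the processing. With a trended prior limma called 1 tested probe for both variants, not a miR-30 probe; all other counts of called probes stayed at 0. Apart from that shift, the cause of the changes below was not tested. No paired analysis was possible because the labels give the groups no shared replicate numbers.

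With that centring the median of all tested probes moved to 0.54 for both variants, 0.51 for variant 1 and 0.60 for variant 2. The median over the 11 probes was 0.33 for both variants, 0.28 for variant 1 and 0.16 for variant 2, and over the 5 probes 0.18, 0.15 and 0.16. In that order, hsa-miR-30a stood at 0.054, 0.0097 and 0.10, hsa-miR-30b at 0.18, 0.20 and 0.16, hsa-miR-30d at 0.35, 0.28 and 0.42, and hsa-miR-30c-2* at 0.33, 0.15 and 0.52. Quantile normalization put hsa-miR-30a at -0.012 for variant 2 against variant 1.

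With 1 array left out at a time, for both variants hsa-miR-30a ran from -0.77 to -0.22 and hsa-miR-30c-2* from -0.38 to -0.05. The median over the 11 probes ran from -0.46 to 0.058 for variant 2 against mock and from -0.51 to 0.26 for variant 2 against variant 1; over the 5 probes it ran from -0.81 to 0.058 and from -0.51 to 0.35. For variant 2 against mock hsa-miR-30a ran from -1.04 to 0.058, hsa-miR-30d from -0.46 to 0.12 and hsa-miR-30c-2* from -0.40 to 0.26. For variant 2 against variant 1 hsa-miR-30a ran from -0.54 to 0.55, hsa-miR-30b from -0.51 to 0.26, hsa-miR-30d from -0.23 to 0.35 and hsa-miR-30c-2* from -0.043 to 0.62.

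Leaving out both arrays that stood apart was chosen after seeing the data. It leaves mock and variant 2 with 1 array each, assumed to vary like variant 1. Both medians were then -0.0092 for variant 2 against mock, and that over the 11 probes was 0.26 for variant 2 against variant 1, where hsa-miR-30b stood at 0.26. For both variants hsa-miR-30c-2* stood at 0.11 and hsa-miR-30d at 0.13, and for variant 2 against mock at 0.42 and 0.31.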
